A study of Mus musculus with 12 samples.

Results

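Homeostatic microglia markers are genes that resident brain macrophages use at rest, and 9 of them were followed here in RNA from O1+ oligodendrocytes sorted from mouse brain: P2ry12, P2ry13, Tmem119, Cx3cr1, Csf1r, Sall1, Siglech, Gpr34 and Olfml3. They were chosen by gene symbol from a table of 55376 symbols, and all 9 were among the 17716 genes that passed the filter on low values, which was at least 1 count per 1000000 counts (CPM) in at least 4 of the 12 samples. The samples came from C57BL/6 mice at postnatal day 40, 4 per genotype, each pooled from 2 brains. The genotypes were wild-type (WT), Cnp-Cre:Jab1flfl, called Jab1 mutants here, and p21-/- Cnp-Cre:Jab1flfl, called double mutants. Cnp-Cre acts in late oligodendrocyte precursors and oligodendrocytes and deletes Jab1 (gene symbol Cops5) there, while the p21 deletion (Cdkn1a) of the double mutants lies in every cell. By the study's methods the gate took live O1+ single cells negative for CD45 and CD11b, so the marker genes were read in a gate meant to leave microglia out, and sorted cells were checked again by cytometry, which was not analysed here.

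Microglia are kept alive by the growth factor receptor Csf1r and sense neurons through the fractalkine receptor Cx3cr1 and through purinergic receptors that detect released nucleotides. The transcription factor Sall1 helps to hold the resting state in microglia. In injured or demyelinated brain, microglia typically lower part of this program and raise the genes called disease-associated.

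Totals ranged from 61485556 to 153495112 counts per sample. As checks of the labels, Cops5 was at 103 ± 39.8 CPM in WT, 66.9 ± 18.0 in Jab1 mutants and 58.6 ± 21.5 in double mutants (SD, n = 4). Cdkn1a was at 41.6 ± 31.5, 452 ± 123 and 88.4 ± 17.9 CPM in the same order (SD, n = 4). Counts over a whole gene include exons outside a deletion, so the Cdkn1a level does not check the p21-/- label. Over the 12 samples, 10 oligodendrocyte genes summed to 8750 to 92300 CPM and 8 astrocyte genes to 3180 to 12300 CPM. In Jab1 mutant replicate 3 the oligodendrocyte sum was 8750 CPM and the astrocyte sum 6640 CPM. Sums of different genes do not measure the purity of a sample. Double mutant replicate 3 stood apart from the other 3 double mutants in the markers, and the double mutant results that rest on it are given with and without it. The order of the markers and their nearest profiles without it were added after the values were seen.

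Positions are from GENCODE M21 (GRCm38). P2ry12 (chr3:59216272-59262871) and P2ry13 (chr3:59207892-59210882) are neighbours on the minus strand, within the span of Med12l on the other strand but without shared exon bases. Olfml3 (chr3:103722222-103738001, minus strand) is on the same chromosome, and Tmem119 (chr5:113793729-113800516, minus), Cx3cr1 (chr9:119901616-120069879, minus), Sall1 (chr8:89027235-89044162, minus), Siglech (chr7:55768178-55778925, plus) and Gpr34 (chrX:13632089-13640858, plus) are on others.

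Promoters are shown for the neighbours P2ry12 and P2ry13, of which P2ry12 passed the test of Jab1 mutants against WT and P2ry13 did not, and for Siglech, which had the largest fitted difference between Jab1 mutants and WT. Each is 300 bases from RefSeq (GRCm38.p6), written 5' to 3' on the gene's own strand, from 250 bases before to 50 bases after the annotated start. Capitals mark the core GAGGAA bound by the myeloid factor PU.1, or TTCCTC where it lies on the reverse strand.
P2ry12 (chr3:59262936-59263235, minus): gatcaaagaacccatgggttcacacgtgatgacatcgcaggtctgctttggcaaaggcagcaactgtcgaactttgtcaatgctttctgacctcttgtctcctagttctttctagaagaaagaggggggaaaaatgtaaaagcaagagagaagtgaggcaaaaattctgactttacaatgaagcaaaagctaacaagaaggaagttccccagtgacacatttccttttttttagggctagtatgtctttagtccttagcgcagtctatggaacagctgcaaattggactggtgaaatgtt
P2ry13 (chr3:59210833-59211132, minus): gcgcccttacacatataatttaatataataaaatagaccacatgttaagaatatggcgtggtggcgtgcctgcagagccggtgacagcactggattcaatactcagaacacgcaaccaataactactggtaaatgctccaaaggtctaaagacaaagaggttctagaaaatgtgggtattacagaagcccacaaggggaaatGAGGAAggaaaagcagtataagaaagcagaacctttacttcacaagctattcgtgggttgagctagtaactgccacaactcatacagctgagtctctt
Siglech (chr7:55767934-55768233, plus): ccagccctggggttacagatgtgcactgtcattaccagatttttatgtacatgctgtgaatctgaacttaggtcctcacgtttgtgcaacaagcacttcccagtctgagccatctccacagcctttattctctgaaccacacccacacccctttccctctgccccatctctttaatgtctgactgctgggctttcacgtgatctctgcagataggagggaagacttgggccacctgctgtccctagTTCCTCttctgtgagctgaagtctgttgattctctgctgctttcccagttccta
Of the 6 markers with a promoter in the RefSeq table (Cx3cr1, Olfml3, P2ry12, P2ry13, Sall1 and Siglech), 2 held the core on either strand. It began 48 bases before the start of P2ry13 and 4 bases before that of Siglech. The same letters occurred in 9289 of 32851 promoters of this length (28.3%), so a match is common. The P2ry12 window held none of these letters in this form. This window lies wholly upstream of the GENCODE M21 span of P2ry12. Its end was not found near the start of a GENCODE transcript of the gene, while the ends of the P2ry13 and Siglech windows were. The absence of the core from P2ry12 thus holds for the RefSeq start only. The longer form GAGGAAGT occurred in 0 of the 8 promoters of these 6 genes and in 1052 (3.2%) of all promoters.

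The opening comparison asked how the markers differed in O1+ cells of Jab1 mutants from those of WT. Of the 9 markers, 7 were higher in Jab1 mutants and 0 were lower by edgeR's quasi-likelihood test with Benjamini-Hochberg adjustment over all genes tested, where 5.19% of all genes tested were called higher. The 7 were Siglech, Csf1r, Gpr34, Cx3cr1, Tmem119, Olfml3 and P2ry12, with mean levels 3.5 to 27.1 times those of WT on the fitted scale. P2ry13 and Sall1 did not pass the test. DESeq2 on the same 8 samples called 8 higher, beside 9.52% of all genes, with P2ry13 the added one. The median log2 fold change was 2.54 over the 9 markers and 0.02 over all genes tested. The 4 Jab1 mutants lay wholly above the 4 WT samples for the same 7 markers, which was so for 9.88% of all genes. In these sorted samples, more cells of a type and more RNA per cell cannot be told apart.

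Csf1r (chr18:61100598-61132149, plus strand), the receptor that microglia need to survive, was at 10.8, 20.1, 24.0 and 13.9 CPM in WT replicates 1, 3, 5 and 6 and at 265, 156, 291 and 163 CPM in Jab1 mutant replicates 1 to 4. The lowest Jab1 mutant was far above the highest WT sample. The log2 fold change was 3.67 ± 0.38 (SE; edgeR adjusted p = 0.000711). Cx3cr1, the receptor for the neuronal chemokine fractalkine, was at 12.9, 3.07, 16.9 and 9.98 CPM in WT and at 140, 56.7, 133 and 101 CPM in Jab1 mutants. Here too the groups were well apart, with replicate 2 the lowest of the mutants. The log2 fold change was 3.33 ± 0.51 (SE; edgeR adjusted p = 0.0045). The exons of Csf1r overlap those of Hmgxb3 on the other strand by 873 bases, and those of Cx3cr1 overlap Gm33858 by 78 bases. The strand setting of the counting is not given in the sources used here, so reads in these stretches cannot be assigned to one gene of the pair with certainty.

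Among the nucleotide and lipid receptors, P2ry12, which guides microglial processes toward ATP and ADP, was at 14.4, 3.53, 13.9 and 10.1 CPM in WT and at 26.7, 39.2, 33.2 and 47.6 CPM in Jab1 mutants. The groups did not overlap, and WT replicate 3 was the lowest sample of all. Its log2 fold change was 1.81 ± 0.45 (SE; edgeR adjusted p = 0.0347), and the call was lost when any of 5 of the 8 libraries was left out (WT replicates 1, 5 and 6 and Jab1 mutant replicates 3 and 4; adjusted p 0.0535 to 0.0918). P2ry13, its neighbour and a second ADP receptor, was at 2.68, 1.58, 4.67 and 6.95 CPM in WT and at 36.8, 6.38, 7.21 and 13.1 CPM in Jab1 mutants. Jab1 mutant replicate 1 was high, while replicate 2 lay within the WT range. The log2 fold change of P2ry13 was 2.0 ± 0.71 (SE) with an edgeR adjusted p of 0.118 (DESeq2 adjusted p = 0.0332), and it was 1.17 without Jab1 mutant replicate 1. Gpr34, a receptor for lysophosphatidylserine, was at 1.54, 0.414, 6.02 and 3.78 CPM in WT and at 52.1, 25.8, 28.7 and 22.7 CPM in Jab1 mutants. The groups were far apart in each sample. Gpr34 differed by 3.46 ± 0.73 (log2 fold change, SE; edgeR adjusted p = 0.017).

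Of the surface and secreted markers, Siglech, a sialic acid-binding lectin, was at 3.96, 1.29, 3.74 and 9.88 CPM in WT and at 154, 64.6, 134 and 158 CPM in Jab1 mutants. All 4 Jab1 mutants were far above all WT samples, with replicate 2 the lowest of them. Its log2 fold change of 4.76 ± 0.61 (SE; edgeR adjusted p = 0.00201) was the largest of the 9. Tmem119, a membrane protein that marks microglia apart from blood-derived macrophages, was at 7.58, 3.92, 10.8 and 9.42 CPM in WT and at 78.4, 27.0, 52.3 and 25.9 CPM in Jab1 mutants. The mutants were all above WT and differed by 3.03 times between the highest and the lowest. The log2 fold change was 2.54 ± 0.48 (SE; edgeR adjusted p = 0.0104). Olfml3, a secreted olfactomedin-like protein, was at 2.73, 6.50, 14.5 and 3.23 CPM in WT and at 45.6, 24.1, 21.1 and 44.9 CPM in Jab1 mutants. The groups were apart, with WT replicate 5 nearest to the mutants. Olfml3 differed by 2.33 ± 0.57 (log2 fold change, SE; edgeR adjusted p = 0.0323), and the call was lost when any of 5 of the 8 libraries was left out (WT replicates 1, 3 and 6 and Jab1 mutant replicates 1 and 4; adjusted p 0.0697 to 0.0895).

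Sall1, the transcription factor of the set, followed another pattern. It was at 24.8, 38.5, 27.3 and 23.4 CPM in WT and at 22.7, 39.4, 57.1 and 35.4 CPM in Jab1 mutants. The groups overlapped, and the lowest of the 8 samples was a Jab1 mutant. The log2 fold change was 0.44 ± 0.34 (SE; edgeR adjusted p = 0.502).

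**Figure D1:**
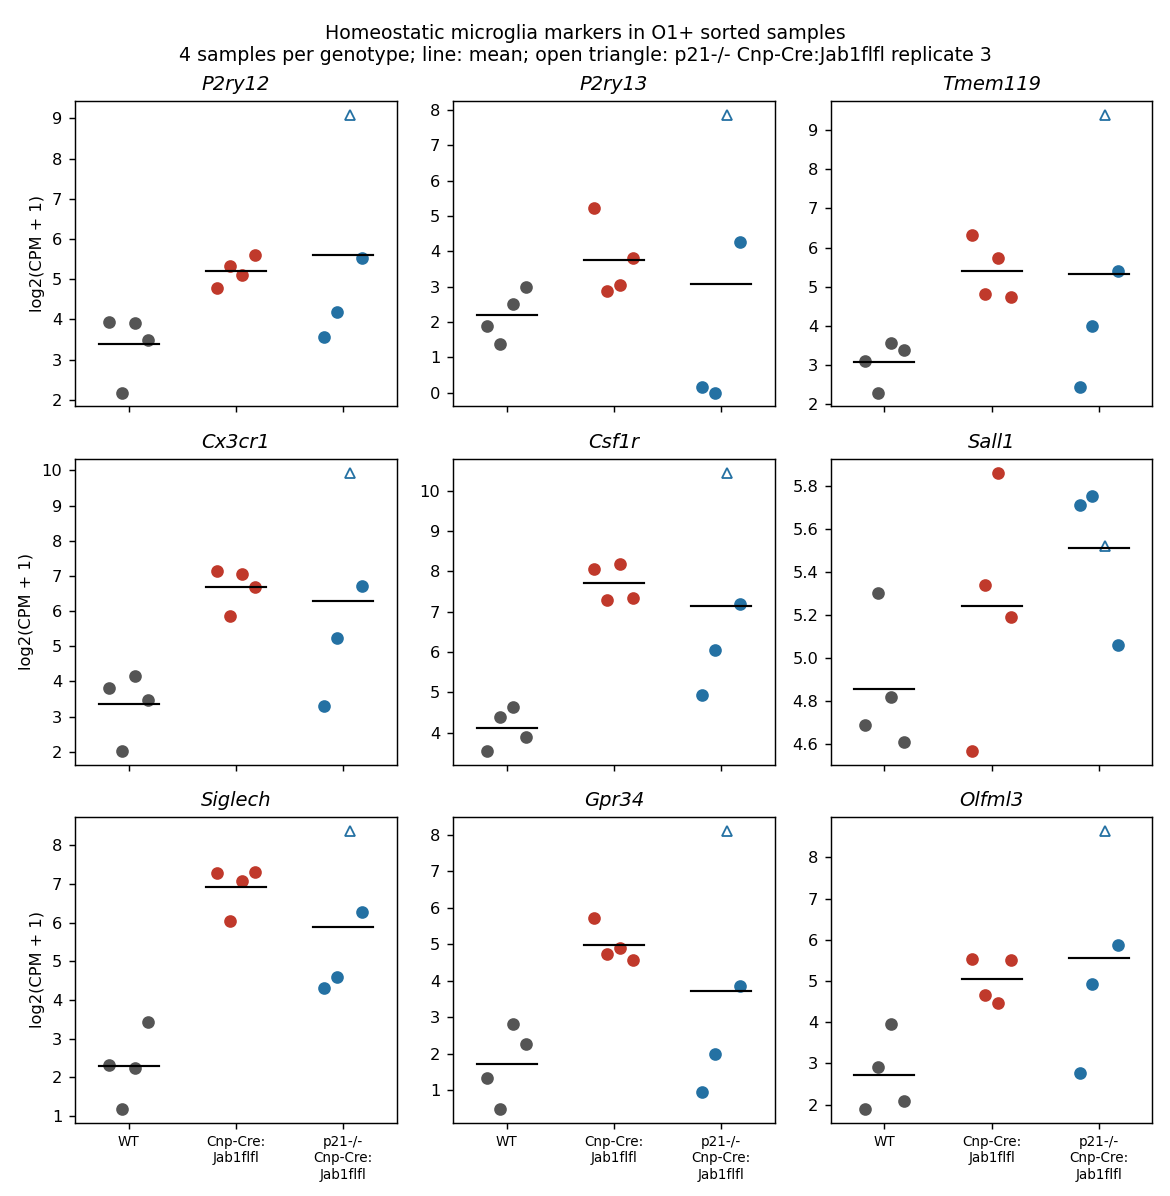
Levels of the 9 markers in each sample as log2(CPM + 1) on the y axis, by genotype on the x axis, with a line at each mean (n = 4). Jab1 mutants sit above all WT samples for 7 markers, not for P2ry13 and Sall1. The open triangle, double mutant replicate 3, is the highest of all 12 samples for every marker but Sall1.

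The next comparison asked how the markers stood when p21 was deleted as well. With all 4 samples, 0 of 9 markers were called against WT in either direction by edgeR, where 0.175% of all genes were called higher. At an unadjusted p under 0.05 the count was 8 of 9, all higher and P2ry13 the exception, beside 7.82% of all genes, and DESeq2 on the same samples called 4 (Cx3cr1, Csf1r, Siglech and Olfml3), beside 3.74% of all genes called higher. The log2 fold changes over WT ran from 0.66 for Sall1 to 4.71 for Cx3cr1, with a median of 4.53 over the 9 and 0 over all genes. Csf1r and Siglech lay above WT in all 4 double mutants, which was so for 4.52% of all genes, and without replicate 3 they were still the 2 that did, beside 5.99% of all genes.

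The spread within the double mutants was wide. Csf1r was at 29.5, 64.6, 1380 and 145 CPM in double mutant replicates 1, 2, 3 and 5. Cx3cr1 was at 8.90, 36.8, 975 and 103 CPM in the same order. Replicate 3 thus lay above every WT sample and every Jab1 mutant for these receptors, while replicate 1 was near or within the WT range. P2ry12 was at 10.8, 17.1, 543 and 45.2 CPM, and Gpr34 at 0.951, 3.0, 273 and 13.5 CPM. P2ry13 was at 0.107, 0, 233 and 18.1 CPM, where 0 of 116034670 counts in replicate 2 allows up to 0.0238 CPM at 3 counts. For P2ry13, replicates 1 and 2 were below all WT samples and replicates 3 and 5 above them. Siglech was at 19.0, 23.3, 329 and 76.5 CPM, the only marker besides Csf1r with no overlap with WT. Tmem119 was at 4.43, 15.1, 672 and 41.4 CPM, and Olfml3 at 5.81, 29.2, 397 and 57.7 CPM. Their lowest double mutants were within the WT range and their highest above every other sample. Sall1 was at 51.3, 53.0, 44.8 and 32.4 CPM, with replicate 3 inside the range of the other 3.

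Replicate 3 was the highest of the 4 double mutants for 8 of 9 markers, by 4.31 times (Siglech) to 20.3 times (Gpr34) over the next. Replicate 1 was the lowest for 7 of 9. The summed level of 12 genes listed as pan-myeloid (Aif1, C1qa, Tyrobp and others) moved with this. It was 16000 CPM in replicate 3 and 357 to 1990 CPM in the other double mutants. The neutrophil genes S100a8, S100a9 and Retnlg were at 51.6, 33.8 and 37.8 CPM in replicate 3, and their part in the result was not tested.

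Without replicate 3, the differences from WT were smaller for 8 of the 9 markers. Siglech then had a log2 fold change of 3.06 ± 0.72 (SE; edgeR adjusted p = 0.169), Csf1r 2.21 ± 0.51, Cx3cr1 2.19 ± 0.76 and Olfml3 2.18 ± 0.78. These 4 had an unadjusted p under 0.05, where 6.09% of all genes were higher at that limit, and 0 of 9 passed the adjusted test (0.0395% of all genes called higher). Gpr34 was at 0.96 ± 1.06, Tmem119 at 1.34 ± 0.68, P2ry12 at 1.2 ± 0.61 and P2ry13 at 0.60 ± 1.69 on the same scale. Sall1, at 0.68 ± 0.33, was about where it stood with all samples. Without replicate 1 in place of replicate 3, 4 markers were called higher (Csf1r, Siglech, Cx3cr1 and Olfml3; edgeR adjusted p 0.0387 to 0.0489), beside 1.14% of all genes.

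Between double mutants and Jab1 mutants, 0 of 9 markers were called by edgeR or by DESeq2, and 0 had an unadjusted p under 0.05 by edgeR. The edgeR test called 0% of all genes, and 5.0% had an unadjusted p under 0.05. The log2 fold changes, double mutant minus Jab1 mutant, ran from -0.19 ± 0.78 (Siglech) to 2.07 ± 1.04 (P2ry12), with standard errors near or above 1 for most markers. The direction turned for 7 markers without replicate 3: 8 then had a log2 fold change below 0, from -0.12 ± 0.65 (Olfml3) to -2.46 ± 0.82 (Gpr34), and Sall1 was at 0.26 ± 0.39. Of these, Siglech (-1.66 ± 0.55), Csf1r (-1.44 ± 0.53) and Gpr34 had an unadjusted p under 0.05, where 5.23% of all genes did. None of the 9 passed the adjusted test without replicate 3 (smallest edgeR adjusted p = 0.869). Both comparisons of double mutants share samples with the comparison of Jab1 mutants and WT.

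**Figure D2:**
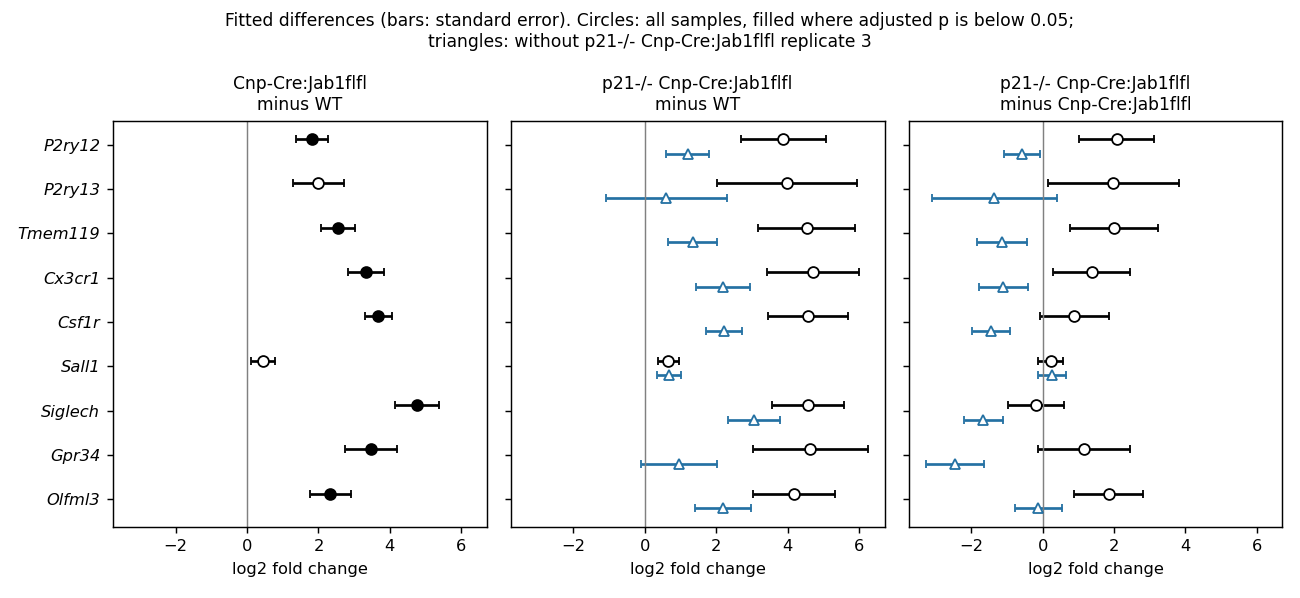
Fitted log2 fold changes on the x axis for each marker, with bars of 1 standard error, in the 3 comparisons. Filled circles mark adjusted p below 0.05, seen for 7 markers in Jab1 mutants against WT, and triangles show the double mutants without replicate 3, where 8 of the 9 markers move left of the circle in both comparisons.

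A further test asked whether the markers changed more or less than the 12 pan-myeloid genes. Each library was scaled to its summed counts of these 12 genes, so that a value of 0 means a marker changed in step with them. Whether these genes hold the same level per myeloid cell in every state was not tested. The pan-myeloid sum was 34.2 to 148 CPM in WT and 769 to 2590 CPM in Jab1 mutants, so most genes of the table fall on this scale, with a median log2 fold change of -4.22 over all genes. On it, 2 of 9 markers were lower in Jab1 mutants than in WT and 0 were higher, beside 86.4% of all genes called lower. They were Sall1, at -3.89 ± 0.92 (SE; edgeR adjusted p = 0.000665), and P2ry12, at -2.09 ± 0.88 (adjusted p = 0.0321). In WT, the Sall1 counts alone were 18.4 to 113% of the summed pan-myeloid counts. In double mutant replicate 3, where the pan-myeloid sum was highest, Sall1 was at 44.8 CPM. Which cells gave the Sall1 counts was not tested. The P2ry12 call was lost when any of 4 of the 8 libraries was left out (WT replicate 1 and Jab1 mutant replicates 1, 3 and 4; adjusted p 0.0714 to 0.115).

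The other 7 markers did not pass. Siglech was the highest on this scale, at 0.73 ± 0.85, followed by Gpr34 at -0.22 ± 1.06, Cx3cr1 at -0.66 ± 0.80 and Csf1r at -0.68 ± 0.79. Tmem119 (-1.55 ± 0.89), Olfml3 (-2.02 ± 0.96) and P2ry13 (-2.26 ± 1.08) were lower, with edgeR adjusted p of 0.101, 0.052 and 0.054. Taken by sample, the log2 ratio of P2ry12 to the pan-myeloid sum was -2.46, -3.28, -3.41 and -3.57 in WT and -6.43, -4.29, -5.16 and -5.77 in Jab1 mutants. The ratio of Tmem119 was -3.38, -3.12, -3.78 and -3.67 in WT and -4.88, -4.83, -4.51 and -6.64 in Jab1 mutants. P2ry12, P2ry13, Tmem119 and Sall1 were the 4 markers whose ratio was lower in every Jab1 mutant than in every WT sample, beside 81.2% of all genes. Siglech ranged from -5.31 to -3.61 in WT and from -4.04 to -3.16 in Jab1 mutants, so those groups overlapped.

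On the same scale, 1 of 9 markers was lower in double mutants than in WT, Sall1 at -2.99 ± 1.37 (SE; edgeR adjusted p = 0.0457), beside 67.4% of all genes, and that call was lost when any of 6 of the 8 libraries was left out. Without replicate 3, 2 were lower, Sall1 at -2.59 ± 1.11 and P2ry13 at -3.76 ± 1.57, beside 72.1% of all genes. The ratios of 6 markers (P2ry12, P2ry13, Tmem119, Cx3cr1, Csf1r and Sall1) lay below WT in all 4 double mutants, beside 74.8% of all genes. Without replicate 3 there were 7, Gpr34 being the added one, beside 75.0% of all genes. In double mutants, Csf1r kept nearly the same ratio in every sample, at -3.60, -3.64, -3.53 and -3.78, with replicate 3 among them. P2ry12 was also close among the 4, at -5.05, -5.55, -4.89 and -5.46. For these 2 markers, the 12-fold excess of P2ry12 and the 9.57-fold excess of Csf1r in replicate 3 over the next double mutant came beside an 8.05-fold excess of pan-myeloid genes. Gpr34 varied more, at -8.54, -8.06, -5.88 and -7.21, and Siglech was lowest in replicate 3, at -5.61 against -4.23, -5.11 and -4.70. Sall1 ranged from -8.48 to -2.80, Tmem119 from -6.33 to -4.58, Cx3cr1 from -5.32 to -4.04 and Olfml3 from -5.94 to -4.78. P2ry13 was at -11.64, -6.11 and -6.78 in replicates 1, 3 and 5 and had no count in replicate 2.

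Between double mutants and Jab1 mutants on this scale, 0 of 9 markers were called and 0 had an unadjusted p under 0.05, where edgeR called 0% of all genes and 1.56% had an unadjusted p under 0.05. The log2 fold changes ran from -1.56 ± 1.29 (Gpr34) to 0.90 ± 1.24 (Sall1). Siglech was the marker whose ratio lay lower in every double mutant than in every Jab1 mutant, beside 1.09% of all genes. Without replicate 3, 0 of 9 were called (smallest edgeR adjusted p = 0.656), and the log2 fold changes ran from -2.34 ± 1.02 (Gpr34) to 1.29 ± 0.93 (Sall1). Gpr34 was then the 1 marker lower at an unadjusted p under 0.05, beside 0.683% of all genes. The ratios of Siglech and Gpr34 were the 2 that lay lower in each of these 3 double mutants than in every Jab1 mutant, beside 1.17% of all genes.

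**Figure D3:**
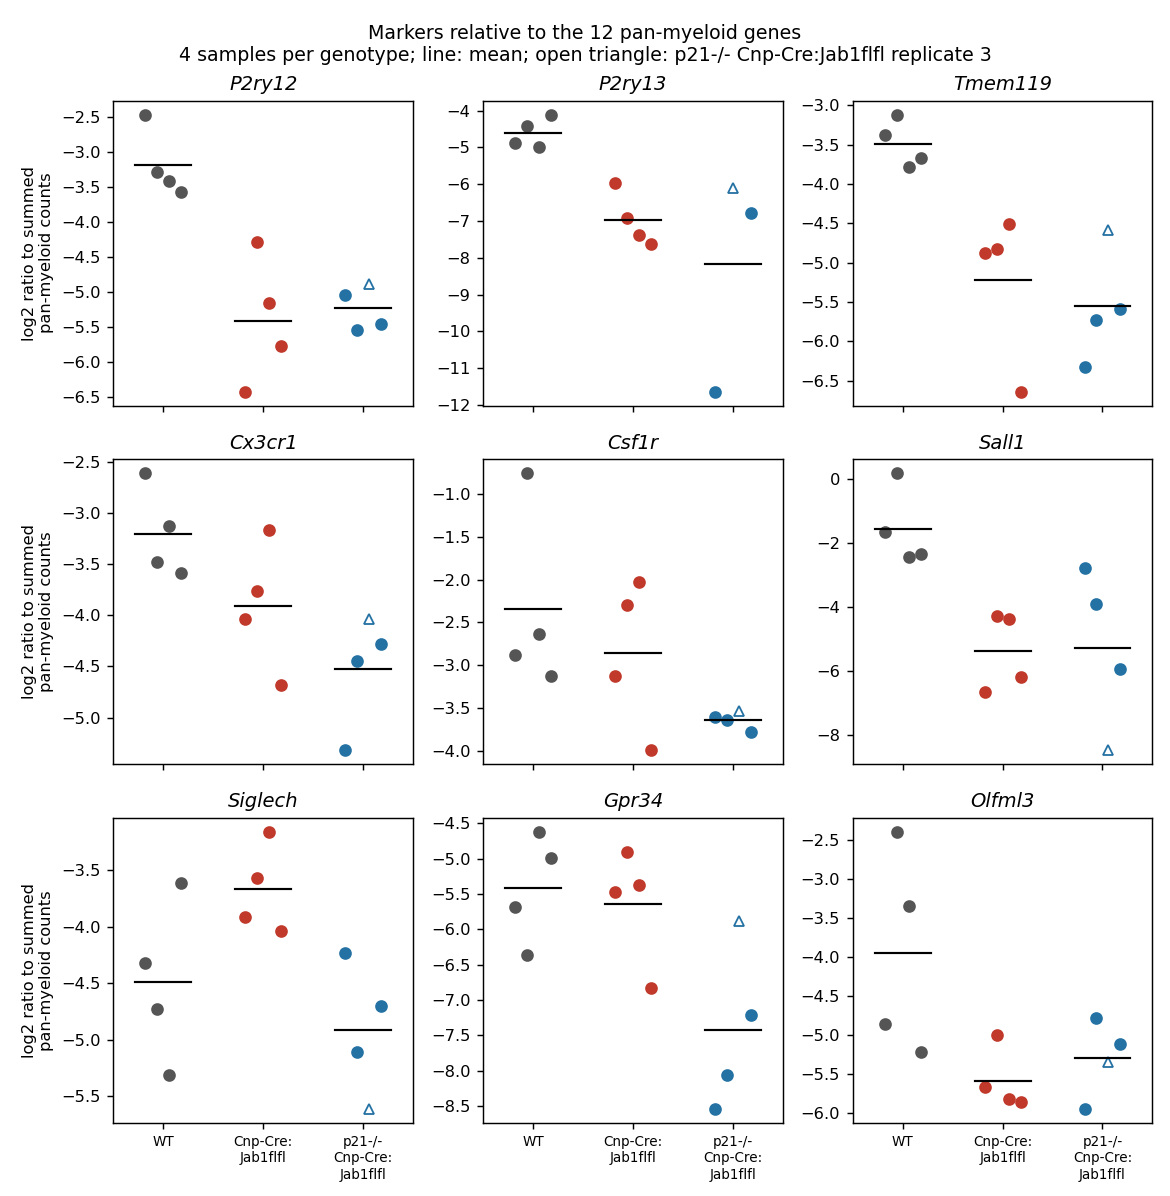
Log2 ratio of each marker's counts to the summed counts of the 12 pan-myeloid genes on the y axis, by genotype on the x axis, 1 point per sample and a line at each mean. WT samples are above all Jab1 mutants for P2ry12, P2ry13, Tmem119 and Sall1. Double mutant replicate 2 is left out of the P2ry13 panel, where it had no count.

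Relative to each other, the markers changed order. Per kilobase of exon, the median level in WT was highest for Sall1 (4.94 CPM per kb) and P2ry12 (4.92) and lowest for Siglech (1.17) and Olfml3 (0.890), but all neighbours in that order had overlapping ranges. In Jab1 mutants, Csf1r (43.8 CPM per kb) and Siglech (43.7) led, followed by Cx3cr1 (25.9), Tmem119 (17.7), P2ry12 (14.8), Gpr34 (13), Sall1 (7.10), Olfml3 (6.31) and P2ry13 (4.02). Gpr34 and Sall1 were the only neighbours in this order without overlap, and only just. The lowest Gpr34 and the highest Sall1 value were both 10.9 CPM per kb when rounded. In double mutants the order began with Csf1r (21.4), Cx3cr1 (15.5) and Siglech (15.2) and ended with P2ry13 (3.60), again with overlap between all neighbours. Without replicate 3 it began with Csf1r (13.2), Sall1 (9.74), Cx3cr1 (8.18) and Siglech (7.08) and ended with P2ry13 (0.0423), and all neighbours still overlapped. As a share of the summed per-kilobase level of the 9, Sall1 made up 23.8 ± 11.9% in WT and 4.43 ± 1.93% in Jab1 mutants, and Siglech 5.65 ± 4.15% and 21.6 ± 5.25% (SD, n = 4). These shares take no account of which cells gave the Sall1 counts.

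Other lists of the same pathway were read beside the markers in Jab1 mutants against WT. Among other genes used as homeostatic markers, 6 of 11 tested were higher and 0 lower, with a median log2 fold change of 1.84. Fcrls rose from 6.76 ± 3.64 to 99.6 ± 26.1 CPM, Ltc4s from 1.55 ± 0.611 to 27.7 ± 10.1 and Selplg from 8.37 ± 6.79 to 80.0 ± 37.9 (SD, n = 4). Cst3, Sparc, Adgrg1, Golm1 and Slc2a5 were not called, and Cst3 (4120 CPM in WT) and Sparc (1230 CPM) are also made by other glia. The ligands of the marker receptors, Csf1 and Il34 for Csf1r and Cx3cl1 for Cx3cr1, gave 0 calls of 3, with Cx3cl1 at 11.8 ± 7.81 CPM in WT and 28.2 ± 21.4 in Jab1 mutants. Of 5 further purinergic genes of microglia, 3 were higher. Entpd1, which breaks down ATP and ADP outside the cell, rose from 8.32 ± 4.86 to 43.4 ± 21.3 CPM, and the adenosine receptor Adora3 and the UDP receptor P2ry6 also rose. The ATP-gated channels P2rx4 and P2rx7 were not called (log2 fold change -0.34 and -0.28).

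Of 10 regulators of microglial identity, 7 were higher and 0 lower. Irf8 rose from 1.07 ± 0.25 to 36.6 ± 12.9 CPM and Mef2c from 16.0 ± 4.88 to 201 ± 81.9 (SD, n = 4). Both encode transcription factors that macrophages use. The Tgfb1 receptors Tgfbr1 and Tgfbr2, which convey the signal for the resting state, were among the 7. Endothelial genes were also higher in Jab1 mutants, and which cells gave the counts of these regulators was not tested. Smad3, Mef2a and Runx1 were not called.

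The pan-myeloid list had 11 of 12 genes higher, all but Itgb2, with a median log2 fold change of 4.16, against 2.54 for the markers. The disease-associated list had 8 of 12 higher and 0 lower, with a median of 5.79, and of 0.68 relative to the pan-myeloid genes, where the markers had a median of -1.55. Clec7a, a lectin of activated microglia, had no count in WT and was at 11.9 ± 7.37 CPM in Jab1 mutants, at least 437-fold higher against a floor of 3 counts per library, and the list's median was 5.79 with it at that bound. Itgax and Lgals3 were at 16.1 ± 9.03 and 49.0 ± 23.7 CPM in Jab1 mutants (SD, n = 4). Axl, Cd9, Gpnmb and Igf1 were not called, and the log2 fold change was 0.05 for Axl and -0.78 for Cd9. Mean WT levels were also low for Itgax (0.00474 CPM), Ccl6 (0.196), Ccl3 (0.228), Cst7 (0.447) and Lpl (0.633). The list's median thus rests in part on WT values near the floor. No test of the difference between lists was made.

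Of the genes of the proteins that the sort selected against, Ptprc, which encodes CD45, was at 0.454 ± 0.72 CPM in WT and 63.8 ± 31.5 in Jab1 mutants, and Itgam, which encodes CD11b, at 1.46 ± 0.66 and 20.4 ± 12.1 (SD, n = 4). Both were called higher. Of the 4926 exon bases of Itgam, 3450 are shared with Gm49368 on the same strand, so reads there cannot be assigned to Itgam with certainty. Their sum was 0.543 to 3.53 CPM in WT, 43.2 to 145 in Jab1 mutants and 7.02 to 156 in double mutants (7.02 to 24.2 without replicate 3), and the part of CD45+ cells in the marker results was not tested.

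Markers of other cell types also moved with genotype, and their part in the result was not tested. Of 10 oligodendrocyte genes 6 were lower in Jab1 mutants and 0 higher, with Opalin at 1150 ± 612 CPM in WT and 58.4 ± 63.6 in Jab1 mutants. Of 6 endothelial genes 5 were higher, all but Pecam1, with a summed level of 267 to 627 CPM in WT and 683 to 4580 in Jab1 mutants. Of 8 astrocyte genes and 7 neuronal genes, 0 were called. Border macrophage genes summed to 3.85 to 7.74 CPM in WT and 4.45 to 16.0 in Jab1 mutants, with 1 of 5 tested higher (Mrc1, from 0.0567 ± 0.0122 to 1.79 ± 0.752 CPM; SD, n = 4). Monocyte and neutrophil genes summed to 0.624 to 2.13 CPM in WT and 1.98 to 17.3 in Jab1 mutants. For these, 0 of 1 tested (Ly6c2) were called, and Chil3 was at 0 in all 12 samples. Lymphocyte genes, none of which passed the filter, summed to 0 to 0.499 CPM in WT and 0.382 to 10.7 in Jab1 mutants. Of 5 tested neighbours of the marker loci, 1 was higher, the UDP-glucose receptor P2ry14 near P2ry12 (8.37 ± 2.21 CPM in WT and 37.2 ± 13 in Jab1 mutants).

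**Figure D4:**
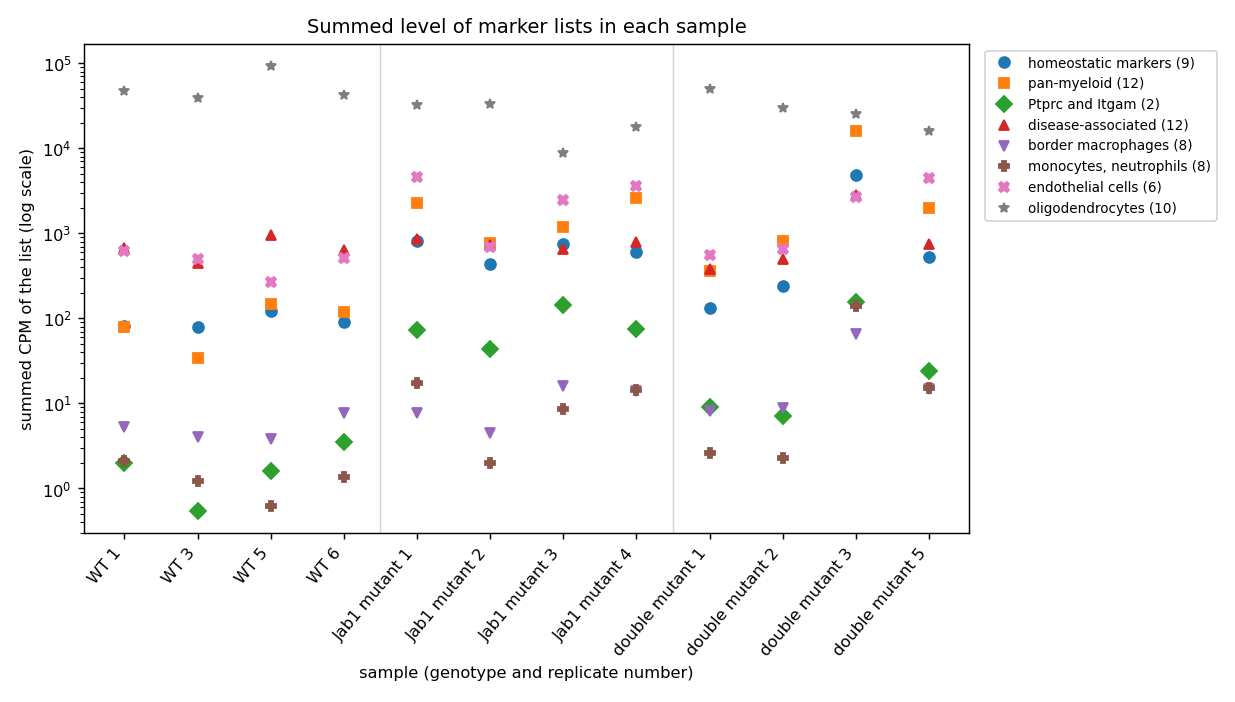
Summed CPM of 8 gene lists on a log y axis, 1 column per sample on the x axis. The homeostatic markers, at 79.0 to 122 CPM in WT, 439 to 821 in Jab1 mutants and 131 to 4850 in double mutants (131 to 532 without replicate 3), move beside the pan-myeloid genes, and both are highest in double mutant replicate 3.

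Over the 12 samples, the genes outside the set whose centred log2(CPM + 1) profile was nearest to the mean profile of the markers included Cd83, Hvcn1, Spi1 and Spint1, at root mean square differences of 0.41, 0.42, 0.50 and 0.50. The median over all 17716 genes was 1.82. Cd83 went from a mean of 5.26 CPM in WT to 37.7 in Jab1 mutants and 73.9 in double mutants (19.1 without replicate 3). Spi1, which encodes PU.1, went from 0.942 to 12.5 and 30.9 CPM (6.25 without replicate 3). Over the 11 samples without replicate 3, the differences of these 4 genes from the marker profile were 0.42 (Cd83), 0.43 (Hvcn1), 0.51 (Spi1) and 0.52 (Spint1), beside a median of 1.41 over all genes. Their ranks by nearness were then 5, 6, 26 and 30 in the same order, so Spi1 and Spint1 were no longer among the 5 nearest. The markers themselves differed from their mean profile by 0.42 (Tmem119) to 1.66 (Sall1), with Siglech at 0.98 and P2ry13 at 1.06. This likeness is a description over 12 samples that share genotype and, in double mutant replicate 3, 1 library far above the rest.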

How the data were processed

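RNA-Seq was analysed in O1+ cells sorted from brain, in 12 samples of 3 genotypes, 4 each, with genotype and replicate taken from the titles and characteristics of the samples. Per the labels and the study's methods, the authors made libraries with a SMART-Seq v4 kit, used Trimmomatic 0.32 for trimming, STAR 2.5.3a for alignment to GRCm38 and featureCounts with a GENCODE basic annotation. The deposited table holds raw counts per gene symbol, without normalization. Symbols were matched to GENCODE M21 for 54402 of 55376.

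Genes reaching 1 CPM in 4 or more samples were tested with edgeR 4.0.16 (quasi-likelihood, TMM factors, R 4.3.3) in the 8 samples of each pair of genotypes, called at an adjusted p below 0.05 (Benjamini-Hochberg over 17716 genes). CPM values use TMM library sizes. The SE is the log2 fold change divided by the square root of F. A second fit scaled libraries to the summed counts of 12 pan-myeloid genes. DESeq2 1.42.0 and limma 3.58.1 were alternatives. The fits were tested on simulated data. Depth was 61485556 to 153495112 counts per sample. The floors of 3 counts cover counting error only, while the SD and SE values include the spread between samples. Each sample pools 2 brains, and p-values measure the spread between samples.

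All 9 markers are named. Of each other list, the 3 genes with the smallest adjusted p between Jab1 mutants and WT are named, along with genes called against their list, genes at 0 in all samples and the 5 nearest profiles. Some genes that this rule names are not reported here. Genes named beyond that rule were chosen after their values were seen. The markers and lists were chosen with earlier results of these data known. Same-numbered samples did not deviate together (r from -0.19 to 0.08), so the numbers were not treated as pairs.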

Additional observations from a re-analysis of the deposited data

Results flagged for a closer look

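Double mutant replicate 3 lay farther from the other 3 double mutants than Dixon's 95% limit for 4 samples allows for 7 of the 9 markers: P2ry12 at 543 CPM, P2ry13 at 233, Tmem119 at 672, Cx3cr1 at 975, Csf1r at 1380, Gpr34 at 273 and Olfml3 at 397. The summed pan-myeloid level of 16000 CPM in the same sample passed that limit too. In all, 30 groups of 4 samples were tested, on CPM values. The limit is meant for normally spread values, which was not checked. It was not applied to log2(CPM + 1), where a high sample lies closer to the rest, so the flags hold for CPM only. The 8 that passed come from 1 library and from genes that move together there, so they are not independent of each other. Chance passes about 1 in 20 groups of normally spread values, and the rate for CPM values was not tested. Siglech, at 329 CPM, and Sall1, at 44.8 CPM, did not pass in this sample.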

How the results depend on the processing

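Of the 7 markers called higher in Jab1 mutants than in WT, 5 to 7 were called when 1 library was left out, 2 in a fit of all 12 samples by edgeR and 3 by DESeq2 on all 12, where 3 markers (P2ry12, Tmem119 and Gpr34) had no adjusted p. DESeq2 on the same 8 samples called 8, P2ry13 (adjusted p = 0.0332) being the added one, and edgeR without a filter called 5, with adjusted p of 0.0762 for P2ry12 and 0.0707 for Olfml3. With the replicate block, 5 were called, and the numbers do not pair the samples (r of deviations from -0.19 to 0.08). Relative to the pan-myeloid genes, the 2 calls became 4 without the C1q genes, 5 with a geometric mean and 1 to 3 with 1 library left out. The main fit on this scale called 86.4% of all genes lower, and the share under these settings was not counted. These counts thus do not set the markers apart from other genes. For Gpr34 the log2 fold change relative to the pan-myeloid genes turned to 0.60 with the replicate block. With 1 library left out it ran from -0.49 to 0.08 for Gpr34 and from -0.98 to 0.18 for Csf1r.

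Against WT, the count of 0 in double mutants became 4 by DESeq2 on the same 8 or on all 12 samples, 2 in a fit of all 12 by edgeR, 1 at a mean of at least 10 CPM, and 0 to 4 with 1 library left out. The count of 1 relative to the pan-myeloid genes became 0 with the replicate block and 0 to 2 with 1 library left out. The main fit on this scale called 67.4% of all genes lower, so these counts do not set the markers apart from other genes. Without the pan-myeloid scaling, the log2 fold change of P2ry13 turned from 3.98 to -2.43 by limma-voom with sample weights.

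Between double and Jab1 mutants no marker was called under any alternative, with or without the pan-myeloid scaling, but directions turned. By limma-voom, the log2 fold changes were -3.74 for P2ry13, -0.33 for Tmem119, -0.59 for Cx3cr1, -0.73 for Csf1r and -1.71 for Gpr34. With the replicate block, they were -6.64, -0.64, -0.59, -0.88 and -2.59 in the same order. With 1 library left out, they ran from -0.57 to 2.47 for P2ry12, -1.36 to 2.82 for P2ry13, -1.15 to 2.42 for Tmem119, -1.10 to 1.80 for Cx3cr1, -1.44 to 1.30 for Csf1r, -1.66 to 0.18 for Siglech, -2.46 to 1.59 for Gpr34 and -0.12 to 2.26 for Olfml3. Relative to the pan-myeloid genes, P2ry12 was at 0.06 without the C1q genes, 0.15 with a geometric mean, 0.14 with the replicate block and -0.26 to 0.49 with 1 library left out, and Sall1 ran from -0.11 to 1.29. The cause was not tested.

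Counts of called genes over the whole table moved by over 1.5 times as well. Between Jab1 mutants and WT the 1354 calls became 2689 and 2314 by DESeq2 on 8 and 12 samples, 859 without a filter, 660 with the replicate block and 678 to 1863 with 1 library left out. Between double mutants and WT the 34 calls became 862, 923, 20, 1 and 1 to 274 in the same order, 164 in the fit of all 12 and 140 at a mean of at least 10 CPM. Between double and Jab1 mutants the 0 calls became 87 and 152 by DESeq2, 5 at a mean of at least 10 CPM, 1 by limma-voom and 0 to 2 with 1 library left out.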
